A study of Schizosaccharomyces pombe with 8 samples.

Results

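The 7 genes described here encode enzymes of the pentose phosphate pathway of the fission yeast Schizosaccharomyces pombe, taken by identifier from the 5165 genes of the expression table. In the oxidative branch they are zwf1 (SPAC3A12.18) and gnd1 (SPBC660.16), for 6-phosphogluconate dehydrogenase. SPAC3C7.13c and gcd1 (SPCC794.01c) are 2 further members. In the non-oxidative branch they are rki1 (SPAC144.12), tal1 (SPCC1020.06c) and tkt1 (SPBC2G5.05), for ribose-5-phosphate isomerase, transaldolase and transketolase. All 7 passed the filter on low values. The rule names them by identifier, but they were chosen with earlier results of these data known.

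Poly(A) RNA was measured in 8 libraries, 2 from each of 4 groups: a pgr1 deletion strain exposed to 1 mM hydrogen peroxide (H2O2) for 30 min, the same strain untreated, wild type (strain 972) exposed in the same way, and untreated wild type. Cells of every group were grown at 30 °C in YE5S, a rich yeast extract medium, to an OD600 of 0.5. The gene pgr1 encodes glutathione reductase, an enzyme that spends NADPH to reduce oxidised glutathione. Each genotype is 1 strain. Whether a pair of replicates was grown as separate cultures is not given in the labels, so a p-value here measures spread between samples that may be purely technical.

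The oxidative branch takes glucose 6-phosphate in 2 dehydrogenase steps to ribulose 5-phosphate and makes NADPH in both. NADPH is the electron donor of glutathione reductase and of thioredoxin reductase, and so of those peroxide-removing enzymes that draw on glutathione or thioredoxin. The non-oxidative branch makes no NADPH: the isomerase yields ribose 5-phosphate for nucleotides, and transketolase and transaldolase rearrange sugar phosphates so that carbon can go back to glycolysis or round the oxidative steps again.

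Levels are DESeq2-normalized counts as deposited, that is, reads divided by a size factor of the library, and a change is a difference of group means of log2(value + 1) ± SE from limma, with n = 2 libraries in each group. A change is called at a Benjamini-Hochberg adjusted p below 0.05 over all 5028 genes tested. Each library held between 12026222 and 14125543 recovered reads. The labels held on the targeted gene: pgr1 had 92.9 and 105.0 normalized counts in the treated and 159.1 and 91.4 in the untreated deletion strain, against 7201.1 and 6792.4 in treated and 4939.4 and 4805.1 in untreated wild type.

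The gene zwf1 belongs to the oxidative branch, and its changes, like those of SPAC3C7.13c, passed in all 5 comparisons under each of the 97 alternative values computed. It had 59890.7 and 64856.8 normalized counts in the treated deletion strain and 15365.0 and 16093.1 in the untreated one. In wild type it had 28716.6 and 33265.4 after H2O2 and 5037.5 and 4755.9 without it. No group overlapped another. The order was treated deletion strain, treated wild type, untreated deletion strain, untreated wild type, so the untreated mutant already stood above untreated wild type.

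With H2O2, zwf1 rose by 1.99 ± 0.10 on the log2 scale in the deletion strain, 3.96-fold (limma, adjusted p = 4.52e-07). In wild type it rose by 2.66 ± 0.10, which is 6.31-fold (limma, adjusted p = 3.47e-08). Without H2O2 the deletion strain was 3.21-fold above wild type, at 1.68 ± 0.10 (limma, adjusted p = 2.22e-06). After H2O2 the strains were closer, with the deletion strain 2.02-fold above wild type, at 1.01 ± 0.10 (limma, adjusted p = 5.81e-05). On the log2 scale the response to H2O2 was thus smaller in the deletion strain, by -0.67 ± 0.14 (limma, adjusted p = 0.00744), while the level reached was higher. In normalized counts the rise was larger in the deletion strain: the mean went from 15729.0 to 62373.8 there and from 4896.7 to 30991.0 in wild type. RNA came from whole cultures, in which more RNA per cell and more cells with the RNA cannot be told apart.

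The gene gnd1 encodes the enzyme of the next NADPH-making step of the oxidative branch. It had 77910.8 and 76954.3 normalized counts in the treated deletion strain, 25204.9 and 24049.0 in the untreated one, 52043.9 and 55275.5 in treated wild type and 16128.1 and 15231.3 in untreated wild type. These groups stood in the same order as those of zwf1 and did not overlap. By normalized counts, without regard to gene length, it was at position 12 of 5165 genes in both treated mutant libraries. It was at 110 and 118 in the untreated wild-type libraries.

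In the deletion strain gnd1 rose with H2O2 by 1.65 ± 0.09 (limma, adjusted p = 1.04e-06), and in wild type by 1.77 ± 0.09 (limma, adjusted p = 3.00e-07). The difference between those responses, -0.12 ± 0.13, did not pass, and its 95% interval ran from -0.42 to 0.18 (limma, adjusted p = 0.554). The deletion strain stood above wild type by 0.65 ± 0.09 without H2O2 (limma, adjusted p = 7.65e-04). After H2O2 it stood above by 0.53 ± 0.09 (limma, adjusted p = 0.00182). Under quantile normalization that last value was 0.23 and did not pass (limma, adjusted p = 0.0628; over the 19 alternatives the value ran from 0.23 to 0.57).

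**Figure D1:**
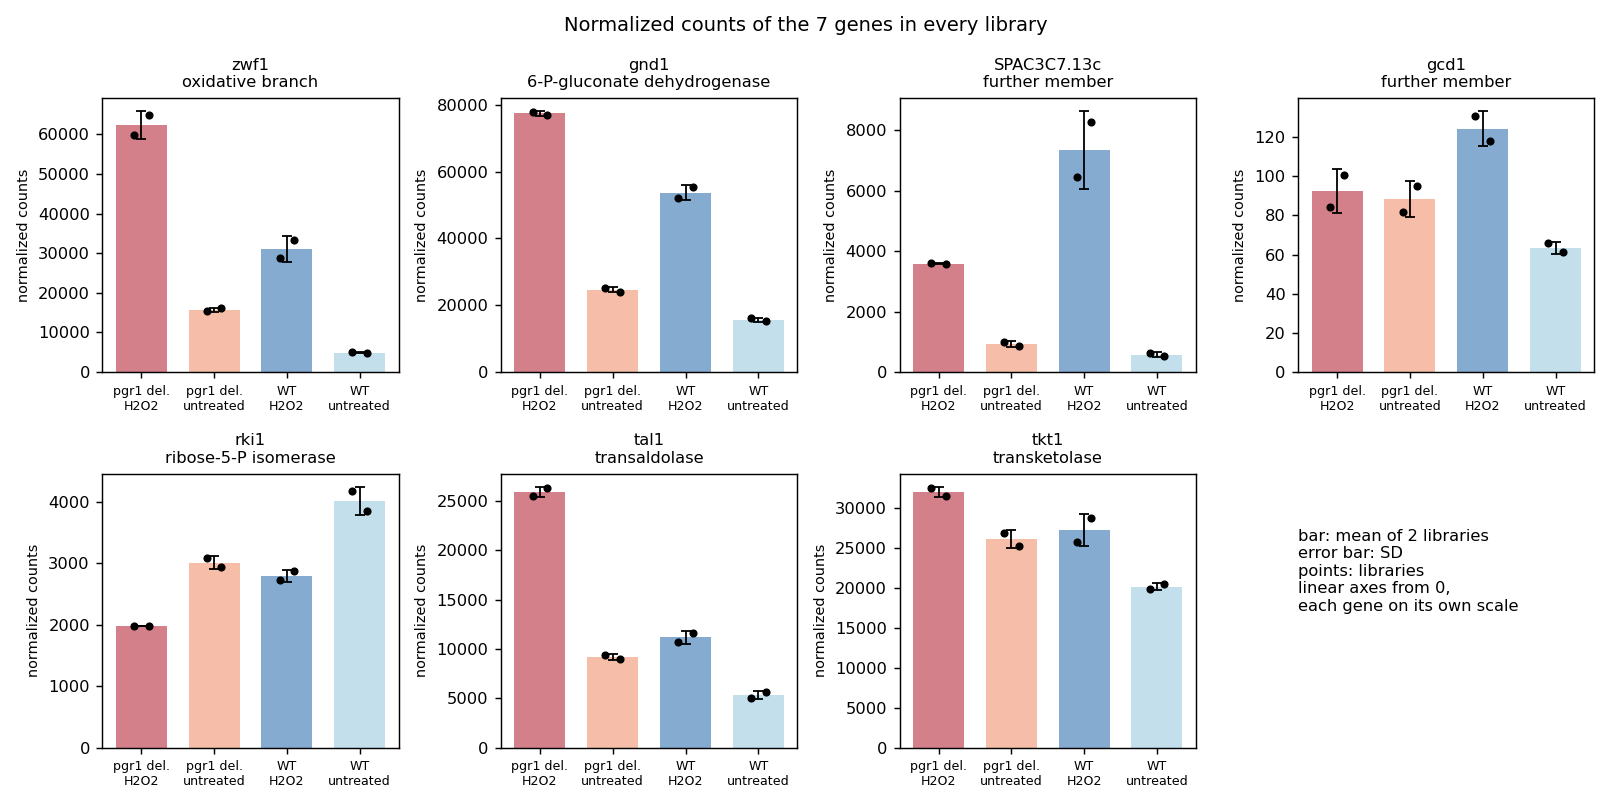
Normalized counts of the 7 genes (linear y axes from 0, a scale for each gene) in the 4 groups; bars are means of 2 libraries, error bars are SD and points are libraries. zwf1, gnd1, tal1 and tkt1 are highest in the treated deletion strain, SPAC3C7.13c and gcd1 in treated wild type, and rki1 in untreated wild type.

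SPAC3C7.13c had another order. It had 3601.1 and 3567.6 normalized counts in the treated deletion strain and 989.8 and 850.8 in the untreated one. Wild type had 6433.4 and 8253.7 after H2O2 and 629.5 and 519.6 without it. Its highest libraries were therefore those of treated wild type, and the groups did not overlap. Within wild type its rise of 3.67 ± 0.13 was the largest of the 7 members, 12.7-fold (limma, adjusted p = 3.36e-08). In the deletion strain it rose by 1.96 ± 0.13 (limma, adjusted p = 2.68e-06). The difference of responses was -1.70 ± 0.19 (limma, adjusted p = 3.63e-04).

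The strain effect on SPAC3C7.13c changed sign with treatment. Without H2O2 the deletion strain was above wild type by 0.68 ± 0.13 (limma, adjusted p = 0.00396). After H2O2 it was below, at -1.02 ± 0.13 (limma, adjusted p = 3.35e-04). In the reference annotation 47.8% of the exon length of SPAC3C7.13c lies opposite tip1, and the strand setting of the counting is not given in the sources used here, so its value is uncertain to that extent. tip1, for a microtubule-end protein, had 1328.7 and 1338.8 normalized counts in the treated and 1426.6 and 1358.0 in the untreated deletion strain. Wild type had 1615.3 and 1603.5 after H2O2 and 1515.5 and 1490.5 without it. Like SPAC3C7.13c, tip1 was highest in treated wild type, but it was lowest in the treated mutant and spanned a far narrower range. After H2O2 the strain difference of tip1 was -0.27 ± 0.06 (limma, adjusted p = 0.00661). The part of tip1 in the result was not tested.

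The gene gcd1 is known in fission yeast as a glucose dehydrogenase, which feeds the pathway through gluconate. It was the least abundant member, with 84.3 and 100.5 normalized counts in the treated deletion strain, 81.8 and 94.7 in the untreated one, 130.7 and 118.0 in treated wild type and 65.7 and 61.1 in untreated wild type. The treated and untreated mutant libraries overlapped. In wild type it rose by 0.96 ± 0.17 (limma, adjusted p = 8.30e-04). In the deletion strain it was at 0.06 ± 0.17 and did not pass, with a 95% interval from -0.33 to 0.46 (limma, adjusted p = 0.757).

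Neither strain comparison of gcd1 passed. The deletion strain was at 0.47 ± 0.17 against wild type without H2O2 (limma, adjusted p = 0.0599; 0.0209 to 0.672 over the 19 alternatives). After H2O2 it was at -0.43 ± 0.17 (limma, adjusted p = 0.0688; 0.0172 to 0.312 over the 19 alternatives). The difference of the H2O2 responses was -0.90 ± 0.24 and passed (limma, adjusted p = 0.0255). It no longer passed without untreated wild-type replicate 2, treated wild-type replicate 1, untreated mutant replicate 2 or treated mutant replicate 1, where limma's adjusted p lay between 0.0582 and 0.0992, nor with DESeq2 on the recovered reads. Over all 19 alternatives that adjusted p ran from 0.0106 to 0.15, and under quantile normalization the difference was -0.52 and did not pass either.

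In the non-oxidative branch the 3 members moved in different ways. The gene rki1, for the isomerase that makes ribose 5-phosphate, was the only one of the 7 members to fall with H2O2. It had 1983.9 and 1985.4 normalized counts in the treated deletion strain and 3083.4 and 2933.1 in the untreated one. In wild type it had 2726.4 and 2864.7 after H2O2 and 4175.2 and 3849.8 without it. The order of the groups was the reverse of that of zwf1: lowest in the treated mutant, then treated wild type and the untreated mutant, and highest in untreated wild type.

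With H2O2, rki1 changed by -0.60 ± 0.07 in the deletion strain (limma, adjusted p = 5.46e-05) and by -0.52 ± 0.07 in wild type (limma, adjusted p = 9.87e-05). Under quantile normalization the fall in wild type was larger, at -0.95. The deletion strain was below wild type by -0.41 ± 0.07 without H2O2 (limma, adjusted p = 0.00144) and by -0.49 ± 0.07 after it (limma, adjusted p = 4.28e-04). The difference of responses was -0.08 ± 0.10, with a 95% interval from -0.29 to 0.14, and did not pass (limma, adjusted p = 0.598). Of the exon length of rki1, 24.2% lies opposite srw1, which fell with H2O2 too, by 1.11 ± 0.19 on the log2 scale in the deletion strain and by 1.20 ± 0.19 in wild type. srw1 had at most 437.6 normalized counts in any library, and its part in the result was not tested.

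The gene tal1, for transaldolase, moved with the oxidative branch. It had 25493.5 and 26264.1 normalized counts in the treated deletion strain, 9374.3 and 8978.7 in the untreated one, 10713.8 and 11640.9 in treated wild type and 5071.6 and 5601.9 in untreated wild type. The treated mutant libraries stood apart from the other 6, and untreated mutant libraries were near, but below, those of treated wild type. In the deletion strain tal1 rose with H2O2 by 1.496 ± 0.08 (limma, adjusted p = 7.43e-07). In wild type it rose by 1.07 ± 0.08 (limma, adjusted p = 2.80e-06), or 0.65 under quantile normalization. The deletion strain stood above wild type by 0.78 ± 0.08 without H2O2 (limma, adjusted p = 9.75e-05) and by 1.21 ± 0.08 after it (limma, adjusted p = 6.23e-06).

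On the log2 scale only tal1 of the 7 members rose more with H2O2 in the deletion strain, by 0.43 ± 0.11 (limma, adjusted p = 0.023). That difference kept its sign in all 19 alternatives, between 0.36 and 0.50. It no longer passed without untreated wild-type replicate 2, treated wild-type replicate 1, untreated mutant replicate 2 or either treated mutant replicate, where limma's adjusted p lay between 0.0564 and 0.0975. Over all alternatives that adjusted p ran from 0.0066 to 0.0975.

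The gene tkt1, for transketolase, had the narrowest range. Its normalized counts were 32445.1 and 31507.8 in the treated deletion strain, 26868.9 and 25254.5 in the untreated one, 25776.3 and 28666.6 in treated wild type and 19806.8 and 20435.8 in untreated wild type. The untreated mutant and treated wild-type libraries overlapped, and untreated wild type was lowest. With H2O2 it rose by 0.30 ± 0.09 in the deletion strain (limma, adjusted p = 0.0182) and by 0.43 ± 0.09 in wild type (limma, adjusted p = 0.00222). Under quantile normalization those values were -0.17 and 0.00 and neither passed, so its direction depends on the scaling.

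The rise of tkt1 in the deletion strain also no longer passed without untreated mutant replicate 2 or either treated mutant replicate, at 0.25, 0.27 and 0.32. The deletion strain was above wild type by 0.37 ± 0.09 without H2O2 (limma, adjusted p = 0.0119), which no longer passed without untreated wild-type replicate 1 (0.35) or untreated mutant replicate 1 (0.33). After H2O2 the strain difference was 0.23 ± 0.09 and did not pass (limma, adjusted p = 0.0627; 0.0232 to 0.416 over the 19 alternatives). The difference of responses was -0.14 ± 0.13, with a 95% interval from -0.43 to 0.16 (limma, adjusted p = 0.484).

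**Figure D2:**
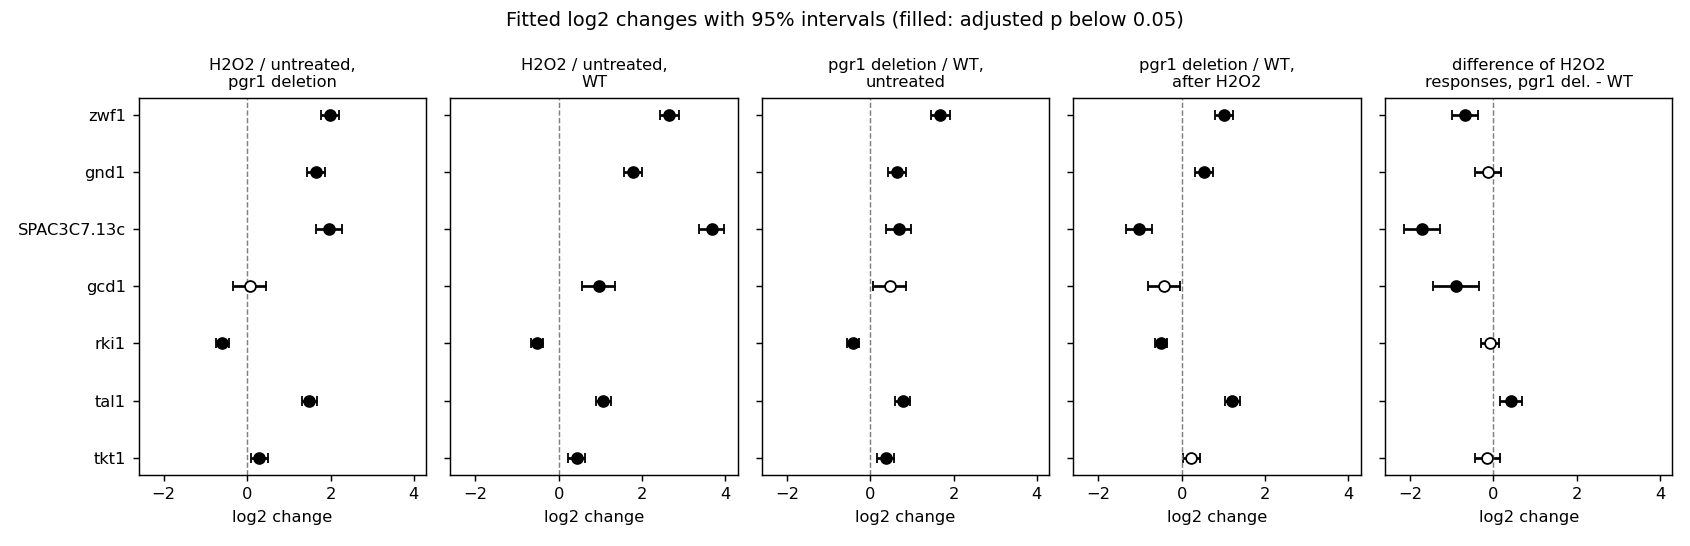
Fitted log2 changes (x axes) of the 7 genes in the 5 comparisons; points are limma estimates from 2 libraries a group, bars are 95% intervals, and filled points have an adjusted p below 0.05. SPAC3C7.13c lies right of 0 in the untreated strain comparison (0.68) and left of it after H2O2 (-1.02), while zwf1, gnd1 and tal1 lie right of 0 in both.

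Counted together, 5 of the 7 members rose and 1 fell with H2O2 in the deletion strain, where 68.2% of all genes tested were called, 35.7% higher and 32.5% lower. In wild type 6 rose and 1 fell, beside 37.7% and 34.6% of all genes (72.3% in all). In the untreated deletion strain 5 were above and 1 below wild type, beside 22.8% and 15.8% of all genes (38.5% in all). Over all genes that was 1145 higher and 792 lower, against 980 and 1443 under quantile normalization. After H2O2 3 were above and 2 below, beside 26.5% and 22.4% (49.0% in all). In the difference of responses 1 was higher and 3 were lower in the deletion strain, beside 12.0% and 15.3% (27.3% in all). By log2 change in wild type SPAC3C7.13c was at position 88 from the top of 5028 genes, zwf1 at 149 and gnd1 at 306, while tal1 was at 655, gcd1 at 744, tkt1 at 1510 and rki1 at 3801. The median change of the 7 members was 1.496 in the deletion strain and 1.07 in wild type, against 0.01 and -0.00 over all genes tested.

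Set side by side, the branches differed in their share of all recovered reads, which sums 2 oxidative and 3 non-oxidative genes without regard to length. Of these reads zwf1 and gnd1 together took 0.923% and 0.952% in the treated deletion strain and 0.337% and 0.339% in the untreated one. In wild type they took 0.581% and 0.623% after H2O2 and 0.193% and 0.18% without it. The non-oxidative genes rki1, tal1 and tkt1 together took 0.401% in both treated mutant libraries and 0.327% and 0.314% in the untreated ones. They took 0.282% and 0.304% in treated wild type and 0.265% and 0.269% in untreated wild type. By summed reads, untreated wild type was the one group in which the non-oxidative genes held more reads than zwf1 and gnd1, and the untreated mutant had nearly even shares.

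The mean of log2(value + 1) over zwf1 and gnd1 minus that over rki1, tal1 and tkt1 was 2.53 and 2.58 in the treated deletion strain and 1.10 and 1.17 in the untreated one. In wild type that difference of levels was 2.09 and 2.12 after H2O2 and 0.27 and 0.16 without it. It was thus positive in all 4 groups, but it takes no account of gene length. Values per kilobase of coding length were also summed for each branch, over unequal numbers of genes. The oxidative sum divided by the non-oxidative sum was 0.72 and 0.66 for untreated wild type, so there the non-oxidative sum was larger. Treated wild type gave 2.02 for each library. The deletion strain gave 2.08 and 2.12 with H2O2, and 1.03 and 1.07 without it. As the members were chosen with results known, these scores carry no test. The branches were not uniform: tal1 changed in the direction of zwf1 and gnd1 in all 4 comparisons of groups, and rki1 in the opposite one. Over the 8 libraries the log2 levels of zwf1 had a Pearson r of 0.98 with gnd1, 0.96 with tal1, 0.97 with tkt1 and -0.96 with rki1, but 0.83 with SPAC3C7.13c and 0.72 with gcd1. These libraries fall into 4 groups, so the r values describe the group pattern and have no p.

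**Figure D3:**
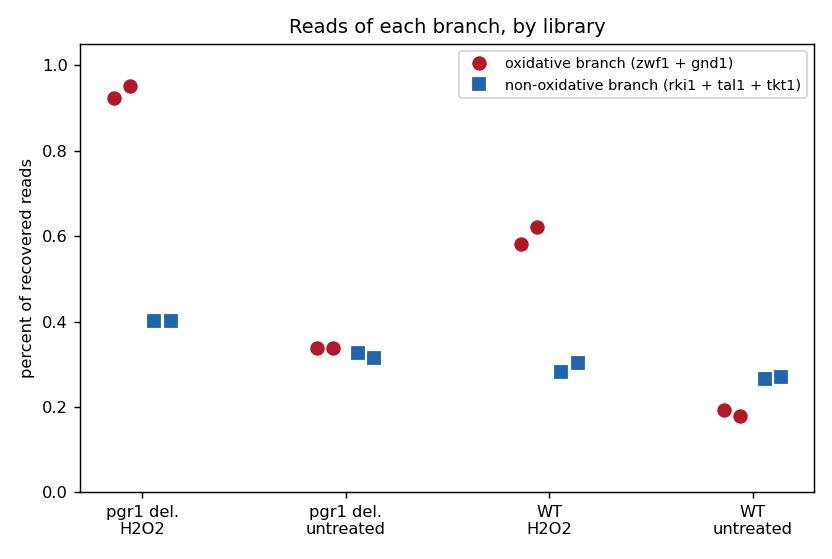
Percent of recovered reads (y axis, linear from 0) held by the oxidative genes zwf1 and gnd1 (circles) and the non-oxidative genes rki1, tal1 and tkt1 (squares) in the 4 groups, a point for each library. The circles lie above the squares in every group but untreated wild type.

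Levels can be set against each other between genes only per length. Per kilobase of coding length, untreated wild type had 10601.6 ± 428.7 normalized counts for gnd1, 9777.1 ± 216.1 for tkt1, 5507.5 ± 386.9 for tal1, 4863.6 ± 278.9 for rki1, 3258.0 ± 132.5 for zwf1, 404.0 ± 54.6 for SPAC3C7.13c and 44.4 ± 2.27 for gcd1 (mean ± SD, n = 2). Of neighbours in this order, tal1 and rki1 differed by less than the sum of their SDs. In the treated deletion strain the order was gnd1 at 52354.7 ± 457.3, zwf1 at 41499.5 ± 2336.4, tal1 at 26706.7 ± 562.3, tkt1 at 15537.6 ± 322.1, SPAC3C7.13c at 2520.6 ± 16.6, rki1 at 2405.6 ± 1.26 and gcd1 at 64.7 ± 8.0 (mean ± SD, n = 2). Thus zwf1 stood next after gnd1 in the treated deletion strain and in the fifth place in untreated wild type. Per kilobase of exon length rki1 was lower, at 1721.3 ± 98.7 in untreated wild type, and stood below zwf1 at 2545.1 ± 103.5 (mean ± SD, n = 2), since its annotated transcript is far longer than its coding part. The ratio of gnd1 to zwf1 per kilobase of coding length was 1.32 and 1.21 in the treated and 1.67 and 1.52 in the untreated deletion strain, against 1.84 and 1.69 in treated wild type and 3.25 in both untreated wild-type libraries.

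Other genes of the pathway came from a list of 5: pgl1, idn1, rbk1, rpe1 and SPBC24C6.09c. With H2O2, 4 rose and none fell in the deletion strain, beside 35.7% and 32.5% of all genes (median of the list 0.98). The same counts held in wild type, beside 37.7% and 34.6% (median of the list 0.88). The gene pgl1, for the lactonase between the steps of zwf1 and gnd1, had 6790.2 and 7013.5 normalized counts in the treated and 3728.0 and 3817.5 in the untreated deletion strain. Wild type had 4871.3 and 4670.5 after H2O2 and 2609.8 and 2585.4 without it. It rose by 0.87 ± 0.06 in the deletion strain (limma, adjusted p = 2.91e-06) and by 0.88 ± 0.06 in wild type (limma, adjusted p = 1.56e-06), less than either of its neighbours in the pathway.

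The gluconate kinase gene idn1, which leads from the product of gcd1 into the pathway, rose by 1.38 ± 0.09 in the deletion strain and by 1.17 ± 0.09 in wild type. Since 98.2% of its exon length lies opposite another gene, that value is uncertain. The ribokinase gene rbk1 rose by 0.98 ± 0.10 in the deletion strain and 0.68 ± 0.10 in wild type. The epimerase gene rpe1, whose product competes with that of rki1 for ribulose 5-phosphate, was at 0.12 ± 0.07 in the deletion strain and 0.07 ± 0.07 in wild type and did not pass in any comparison. Its levels stayed between 3265.5 and 3880.3 normalized counts in all 8 libraries. Of the exon length of rpe1 13.7% lies opposite another gene, as does 9.56% of that of rbk1.

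SPBC24C6.09c belongs to the phosphoketolase family, whose enzymes in bacteria split xylulose 5-phosphate. It had 13727.1 and 14046.0 normalized counts in the treated deletion strain, 738.9 and 678.2 in the untreated one, 17457.0 and 21052.4 in treated wild type and 56.9 and 35.6 in untreated wild type. Like SPAC3C7.13c it was highest in treated wild type, and its responses differed by -4.41 ± 0.26 (limma, adjusted p = 9.21e-06). Of the 5 listed genes 4 were above wild type in the untreated mutant and 3 after H2O2, with none below. Of all genes, 22.8% were above and 15.8% below in the untreated mutant, and 26.5% and 22.4% after H2O2.

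A list of 8 other genes was drawn up for NADPH supply, and 7 of them were tested. The list is not specific to NADPH: SPAC750.08c is annotated as an NAD-dependent enzyme, and the annotation of mae2 names no cofactor. With H2O2, 6 rose and 1 fell in the deletion strain, beside 35.7% and 32.5% of all genes. In wild type 4 rose and 2 fell, beside 37.7% and 34.6% (medians of the list 0.83 and 1.06). In the deletion strain the largest changes were those of the NAD/NADH kinase genes SPCC24B10.02c (1.13 ± 0.12) and SPAC3H5.11 (0.94 ± 0.07) and of SPAC1B1.02c (0.91 ± 0.09), of the same annotation. In wild type they were SPCC24B10.02c (1.78 ± 0.12), ade9 (-1.43 ± 0.09), for a folate enzyme with an NADP-dependent step, and pos5 (-1.14 ± 0.10), for the mitochondrial NADH kinase. NADH and NAD kinases make the NADP(H) pool itself. Of exon length, 19.7% of SPAC3H5.11, 11.0% of ade9 and 7.93% of SPCC24B10.02c lies opposite another gene, so these values are uncertain to that extent.

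The kinase gene pos5 had 619.7 and 662.2 normalized counts in the treated and 522.3 and 526.4 in the untreated deletion strain, against 270.6 and 241.3 in treated and 526.2 and 607.1 in untreated wild type. It stood lower in treated wild type than in any other group. In the deletion strain it rose by 0.29 ± 0.10, and the difference of responses was 1.43 ± 0.15 (limma, adjusted p = 2.47e-04). SPAC1B1.02c was at 0.02 ± 0.09 in wild type, and its responses differed by 0.89 ± 0.13 (limma, adjusted p = 0.00130). The malic enzyme gene mae2 rose in both strains (0.83 ± 0.10 and 1.09 ± 0.10). It was among the risers counted for the list, and its value was the median of the list in the deletion strain.

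In the strain comparison of this list 4 genes were above and 1 below wild type without H2O2, beside 22.8% and 15.8% of all genes. After H2O2 4 of the list were above and none below, beside 26.5% and 22.4%. The largest differences were 1.08 ± 0.12 without H2O2 for SPCC24B10.02c and 1.37 ± 0.09 after it for SPAC1B1.02c. The remaining entry, SPAC750.08c, annotated as an NAD-dependent malic enzyme, was at 0 in every library. All of its 31-base stretches occur in other genes, and mae2 shares 6.34% of its own with others, so SPAC750.08c is uncertain and mae2 partly so.

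Of 10 NADPH-using enzymes, a list that includes pgr1, 2 rose and 6 fell with H2O2 in the deletion strain. Of all genes 35.7% rose and 32.5% fell there. In wild type 4 of the list rose and 5 fell, beside 37.7% and 34.6% (medians of the list -0.51 and -0.31). The largest rise was that of trr1, for thioredoxin reductase, which had 61894.2 and 69127.9 normalized counts in the treated and 7806.5 and 7851.2 in the untreated deletion strain. Wild type had 12710.6 and 13996.7 after H2O2 and 4834.4 and 4854.4 without it. Its responses differed by 1.60 ± 0.12 in favour of the deletion strain (limma, adjusted p = 4.35e-05), the sign of tal1 and not of zwf1. The glutamate dehydrogenase gene gdh1 had the opposite sign, at -0.99 ± 0.13 (limma, adjusted p = 9.08e-04). The fallers in both strains included the squalene monooxygenase gene erg1 (-1.57 ± 0.07 in the deletion strain and -1.44 ± 0.07 in wild type) and the sulfite reductase gene sir1 (-1.32 ± 0.23 and -1.31 ± 0.23).

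Among 8 genes around glucose 6-phosphate and upper glycolysis, 3 rose and 2 fell with H2O2 in the deletion strain. Of all genes 35.7% rose and 32.5% fell there. In wild type 6 of the list rose and none fell, beside 37.7% and 34.6% (medians of the list 0.05 and 0.44). The isomerase gene pgi1, at the branch point with zwf1, had 41109.2 and 41813.1 normalized counts in the treated and 26450.0 and 26301.5 in the untreated deletion strain, against 32024.6 and 34744.6 in treated and 15742.8 and 15105.5 in untreated wild type. It rose by 0.65 ± 0.09 and 1.11 ± 0.09. The phosphofructokinase gene pfk1, the next step of glycolysis, fell by 0.32 ± 0.09 on the log2 scale in the deletion strain and was at -0.06 ± 0.09 in wild type. In the untreated mutant 7 of the 8 were above wild type and none below (median 0.69), beside 22.8% and 15.8% of all genes. Among the 7 were tps1, for trehalose 6-phosphate synthase, at 1.65 ± 0.10 and the gluconeogenic gene fbp1 at 1.46 ± 0.19. With H2O2, tps1 had the largest rise of the list, at 1.69 ± 0.10 in the deletion strain and 3.34 ± 0.10 in wild type. Its responses differed by -1.65 ± 0.15 (limma, adjusted p = 1.16e-04).

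**Figure D4:**
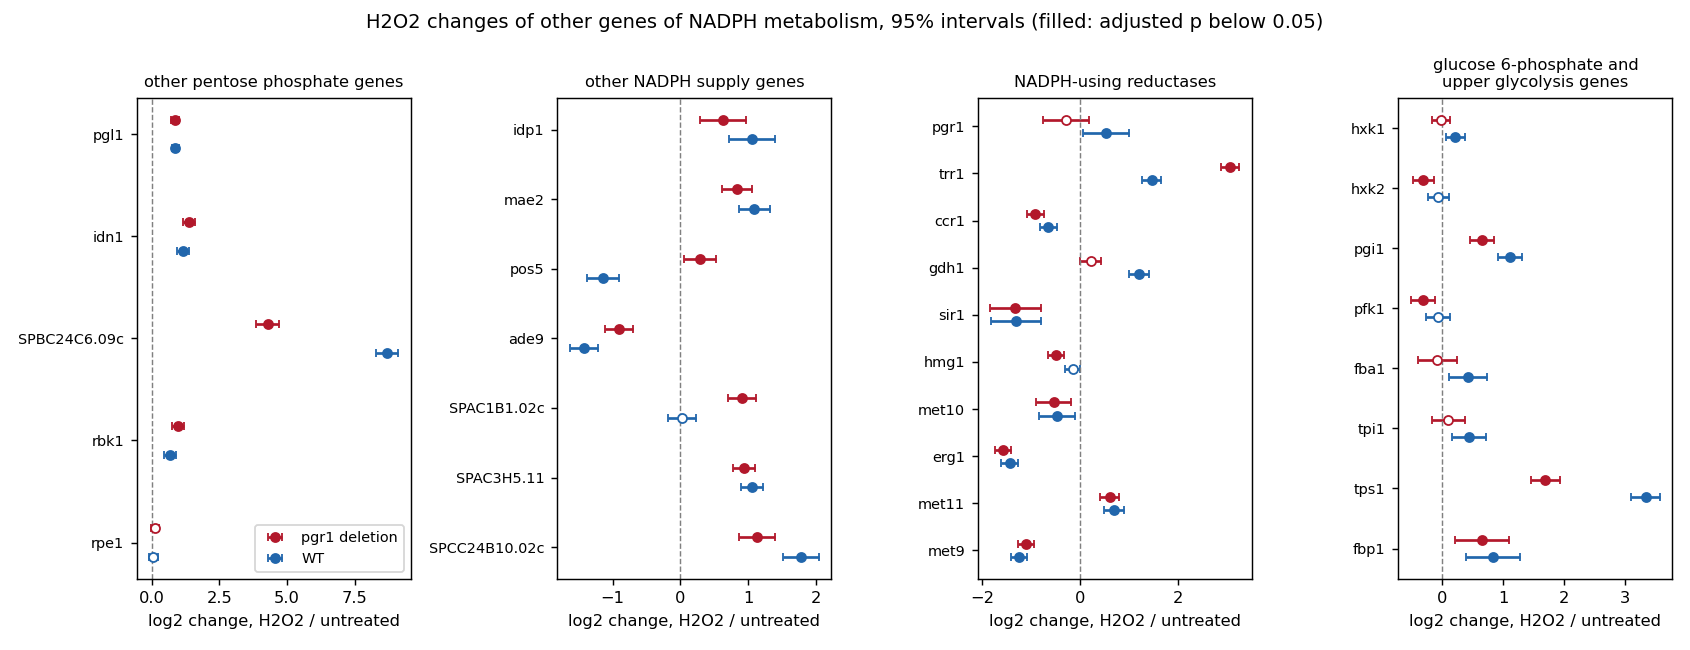
Log2 changes with H2O2 (x axes, a scale for each panel) in the deletion strain (red) and wild type (blue) for 4 gene lists; points are limma estimates, bars are 95% intervals, and filled points have an adjusted p below 0.05. pos5 lies right of 0 in the deletion strain (0.29) and left of it in wild type (-1.14).

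Ribose 5-phosphate leaves the pathway through ribose-phosphate pyrophosphokinase, for which 3 genes were tested. With H2O2, 1 rose and none fell in the deletion strain, beside 35.7% and 32.5% of all genes. In wild type 1 rose and 1 fell, beside 37.7% and 34.6%. The riser in both was SPAC4A8.14 (0.71 ± 0.08 and 0.46 ± 0.08), and SPCC1620.06c, of whose exons 90.3% lie opposite another gene, was at -0.00 ± 0.06 in the deletion strain and fell in wild type (-0.58 ± 0.06). The third, prs5, was at 0.04 ± 0.06 and -0.12 ± 0.06.

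For each member the 3 genes with the most similar pattern over the 8 libraries were taken by Pearson r of log2(value + 1) among 4862 candidates. For zwf1 they were fsv1, SPAC23A1.14c and pzh1 (r of 0.999, 0.998 and 0.997), and for SPAC3C7.13c caa1, dps1 and zfs1 (r of 0.998, 0.996 and 0.995). For tal1 they were mkh1, aly3 and ppk8 (r of 0.997, 0.996 and 0.995). The genes closest to rki1 were aro2, his1 and cdc13 (r of 0.994, 0.994 and 0.991), and those closest to gcd1 were SPCC622.01c, erv2 and urh2 (r of 0.973, 0.965 and 0.959). For tkt1 they were atg4, cpy1 and vac14 (r of 0.994, 0.988 and 0.984), and for gnd1 pls1, gad8 and rpn7 (r of 0.9996, 0.998 and 0.998). These are the highest r among 4862 candidates over 8 libraries in 4 groups, so they describe the group pattern and have no p.

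Genes listed as markers of another cell state, nitrogen starvation and sexual development, moved in both directions with H2O2. The list also holds inv1, an external invertase gene, so it is not specific to that state. Of the 8 genes, 3 rose and 4 fell with H2O2 in each strain. Over all genes 35.7% rose and 32.5% fell in the deletion strain, and 37.7% and 34.6% in wild type. In the untreated mutant 3 of the 8 were above and none below wild type, beside 22.8% and 15.8% of all genes. The summed level of the 8 was 10842.3 and 11372.8 normalized counts in the treated and 6612.7 and 6976.1 in the untreated deletion strain. It was 9691.7 and 9610.7 in treated and 2898.7 and 2774.1 in untreated wild type. The largest part of that sum in each of the 8 libraries was isp6, a vacuolar protease gene, with 7873.2 and 8350.1 normalized counts in the treated and 4351.8 and 4852.7 in the untreated deletion strain, against 5263.2 and 6205.5 in treated and 1069.8 and 1193.3 in untreated wild type. In the untreated strain comparison inv1, isp6 and mei2 passed, and the other 5 did not. None of the 8 was at 0 in any library. The invertase gene inv1 rose by 2.63 ± 0.27 in the deletion strain and 5.60 ± 0.27 in wild type. The master regulator gene ste11 was at -1.77 ± 0.26 and -3.02 ± 0.26 with H2O2, while isp6 rose by 0.82 ± 0.10 and 2.34 ± 0.10. Their part in the changes of the 7 members was not tested.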

How the data were processed

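Poly(A) RNA was sequenced in 8 libraries. The deposited table holds a signal per gene that the authors made by dividing read counts by a size factor (DESeq2-normalized counts). The tools listed in the submitters' processing notes are Salmon, DESeq2, Trimmomatic and FastQC, and the genome build is ASM294v2. Their versions, settings and strand option: not given in the sources used here. Taking the smallest value above 0 in each column as 1 read gave whole reads, within 0.05, for at least 99.98% of genes per library. The line naming no gene was left out.

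The 5028 genes that reached 10 normalized counts in 2 or more libraries were fitted with limma 3.58.1 in R 4.3.3 on log2(value + 1), with a trended prior variance and 1 mean per group. The pseudocount of 1 shrinks the fold changes of genes with low values. Tests were two-sided and Benjamini-Hochberg adjusted over all genes in each of 5 comparisons. Alternatives included edgeR 4.0.16 and DESeq2 1.42.0 on the recovered reads. The fit was tested on simulated counts. The members, gene lists and tests were chosen with earlier results of these data known. Named genes are all 7 members, pgr1, the listed pathway genes, of other lists the called genes with the 3 largest absolute changes in a comparison, and the 3 genes most like each member (mean of at least 20 in every group). Genes lying opposite a member, prs5 and SPAC750.08c were named after their values were seen. The symbol prs1 matched a tRNA ligase gene and was left out of its list. Names, lengths, overlaps and shared 31-base stretches came from assembly ASM294v3. As that is not the authors' build, no coordinates or sequences are printed and promoter motifs were not analysed here. A comparison of some members as a family is not reported here.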

Additional observations from a re-analysis of the deposited data

Results flagged for a closer look

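For 4 of the 7 members a test of the difference itself found that the response to H2O2 was not the same in the deletion strain and in wild type, beside 27.3% of all genes tested. The difference of log2 changes, deletion strain minus wild type, was -0.67 for zwf1, -1.70 for SPAC3C7.13c, -0.90 for gcd1 and 0.43 for tal1 (limma, adjusted p below 0.05 over all genes tested). Leaving out 1 library left 2 to 4 of these calls: those of gcd1 and tal1 were lost without some libraries, and those of zwf1 and SPAC3C7.13c passed in every such fit. Groups of 2 libraries are too small to look for a single library that stands apart.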

How the results depend on the processing

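Over the 35 changes of the 7 members, 679 alternative values were computed: 647 kept their direction and their side of the threshold, 18 no longer passed, 9 passed where the reported value did not, and 5 changed sign. The sign changed for tkt1 with H2O2 in the deletion strain under quantile normalization (-0.17), for gcd1 with H2O2 in the deletion strain without untreated mutant replicate 1 (-0.04) and without treated mutant replicate 2 (-0.061; leaving out 1 library gave -0.061 to 0.189), for gcd1 in the untreated strain comparison under quantile normalization (-0.094), and for rki1 in the difference of responses under quantile normalization (0.050). Leaving out 1 library gave 5 to 6 members called with H2O2 in the deletion strain, 7 in wild type, 5 to 6 in each strain comparison and 2 to 4 in the difference of responses. The lone library then left in a group is assumed to vary like those of the other groups. Over all genes it gave 2827 to 3478 and 3376 to 3588 calls for H2O2 in the deletion strain and wild type, 1351 to 2060 and 1628 to 2488 for the strain comparisons without and after H2O2, and 781 to 1400 for the difference of responses. The counts of 1628 and 781 came without treated mutant replicate 2, and without treated mutant replicate 1 the difference of responses gave 909. The 2 members called in that difference came without untreated wild-type replicate 2, treated wild-type replicate 1, untreated mutant replicate 2 or treated mutant replicate 1; the causes were not tested. edgeR on the recovered reads called 3443, 3649, 2008, 2408 and 1385 genes in these 5 comparisons.

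The 2 library numbers shared by the groups are not stated to mark a culture or a day. Deviations of same-numbered libraries from their group means had r between -0.14 and 0.37 over the 6 pairs of groups. With the replicate block 3638, 3822, 2345, 2794 and 1684 genes were called, and tkt1 after H2O2 passed (0.23). Quantile normalization turned the balance of higher and lower calls in all 5 comparisons: 1588 and 1795 against 1793 and 1634 for H2O2 in the deletion strain, 1646 and 2052 against 1894 and 1741 in wild type, 980 and 1443 against 1145 and 792 for the strains without H2O2, 1064 and 1238 against 1334 and 1128 after it, and 651 and 632 against 605 and 767 for the difference of responses. Level per kilobase of coding length is limited by the length used: all 12 values of zwf1, SPAC3C7.13c and gcd1 moved by more than 1 SD with exon length, 7 with quantile normalization and 1 with TMM scaling.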
